A study of Chlamydomonas reinhardtii with 34 samples.

Results

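The 5 libraries described here follow the starchless strain sta6 (CC-4348) of the green alga Chlamydomonas reinhardtii through its first 4 h without nitrogen. They were taken by strain and time from a series of 34 RNA sequencing libraries, and they are the cells before the wash, at 0 h, and at 0.5, 2 and 4 h in medium without nitrogen. The pre-wash and 0 h libraries served as the replete group (n = 2), and the later ones as the starved group (n = 3). The sta6 strain lacks a working ADP-glucose pyrophosphorylase small subunit and makes almost no starch. Cultures grew in HSM, a minimal medium with ammonium as its nitrogen source, under light of 25 µmol photons per m2 per s, and were then washed and resuspended in HSM without ammonium chloride. The 0 h cells had therefore been washed and the pre-wash cells had not. CC-4349, sampled at the same times under the same conditions, is the comparison strain, and the labels say nothing on how the strains are related. There was 1 library per strain and time, so time points stood in for replicates and no p-value measures the spread between cultures.

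A Chlamydomonas cell that loses its nitrogen source first turns to finding nitrogen and then to saving it. As background, genes for ammonium, nitrate and organic nitrogen uptake come on, protein synthesis and photosynthesis are scaled down, division stops, and over longer times starch and triacylglycerol build up. In sta6 the starch route is closed and the strain is known for its store of triacylglycerol. The early hours precede that store, and the question put to these libraries is which transcripts move, in which direction, and in what order. The deposited table gives identifiers with no gene names. Its identifiers matched 12666 rows of the reference by locus tag, 73.2% of the 17301 gene models, but that reference (assembly Chlamydomonas_reinhardtii_v5.5) holds 0 symbols other than the locus tags. Loci are therefore named by identifier, with no gene name and no role, and the 30 pathway lists prepared for this strain and treatment had 0 members that could be matched.

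Levels are in RPKM, reads per kb of gene model scaled to the library total, as the deposited values were taken to be. The read totals behind the 5 libraries, recovered from the values, were 8.35 M before the wash and 9.29 M after it, and then, in order of time without nitrogen, 8.26, 5.72 and 35.3 M. The 2 h library was the shallowest of all 34, where a single read in a model of 1 kb stands for 0.175 RPKM, against 0.0284 RPKM at 4 h. The locus Cre03.g188250.t1.1, used to check the strain labels, lay between 1.16 and 2.74 RPKM in the 5 sta6 libraries and between 170 and 251 RPKM in the matched CC-4349 libraries. The strains did not overlap at it in these libraries.

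Across the libraries, Pearson's r over 14513 genes differed with time. It was 0.947 between pre-wash and 0 h, 0.949 between pre-wash and 0.5 h, and 0.951 between 2 h and 4 h, but 0.812 between 0 h and 2 h and 0.809 between 0 h and 4 h. Pre-wash had 0.850 with 2 h and 0.851 with 4 h. The 0.5 h library had 0.939 with 0 h, 0.8995 with 2 h and 0.876 with 4 h. It was thus nearest the replete libraries but lay between them and the later ones, and the 2 h and 4 h libraries lay near each other. These values are across genes, which are not independent replicates. The replete libraries themselves were apart: 1700 genes (11.7% of those tested) were at least 2-fold different at 0 h from pre-wash, 981 higher (6.76%) and 719 lower (4.95%), with 1 library each and no test.

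Over the first hours as a whole, 2472 of 14513 genes were called in sta6, which is 17% of the genes tested. A call needed an adjusted p under 0.05 and at least a 2-fold change by limma on log2(RPKM + 1). Of these, 1619 were higher (11.2%) and 853 lower (5.88%). At least 4-fold changes were found in 181 of the higher and 186 of the lower genes, and at least 16-fold changes in 18 and 2. The median log2 change over all genes tested was 0.24, and the split of the calls turned with the scaling. This median was 0.16 without the 0 h library and 0.34 without the pre-wash library. After median-of-ratios scaling the median was 0.04, and 984 genes were called higher against 1225 lower. Late starvation in sta6 (24 and 48 h, and 0 h after the acetate boost), tested in the same way, called 4542 genes (31.3%), 2615 higher (18.0%) and 1927 lower (13.3%).

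The largest rise was at Cre13.g569850.t1.1. Its level was 1.04 RPKM before the wash and 25.4 at 0 h, and it read 658, 1492 and 1259 RPKM after 0.5, 2 and 4 h. All 3 starved libraries lay far above both replete libraries, and the 0 h library had already left the pre-wash level. From a replete mean of 13.2 ± 17.2 RPKM (SD, n = 2) to a starved mean of 1136 ± 431 RPKM (SD, n = 3), the log2 change was 7.19 (SE 0.585, limma adjusted p = 5.12e-09). It stayed high afterwards, with 1223 RPKM at 8 h and 587 RPKM at 48 h. The same locus read 4.75, 21.1, 625, 1247 and 1028 RPKM in the matched CC-4349 libraries, and its limma log2 change there was 6.36 (SE 0.585).

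The second largest rise was at Cre06.g260700.t1.1. It went from 0.104 RPKM before the wash and 4.08 at 0 h to 46.7, 193 and 200.3 RPKM after 0.5, 2 and 4 h. Here the rise continued to 2 h and then levelled off, and the groups did not overlap. The pre-wash value rested on 3 reads and the 0 h value on 131. The log2 change was 5.70 (SE 0.622, limma adjusted p = 5.9e-07).

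The largest falls came later. Cre07.g346950.t1.2 was at 54.9 RPKM before the wash and 84.5 at 0 h, then at 19.4, 0.884 and 0.359 RPKM at 0.5, 2 and 4 h. Each starved library lay below both replete libraries, with the 0.5 h library between them and the later times. The log2 change was -4.21 (SE 1.05, limma adjusted p = 0.00448). Cre26.g773000.t1.2 held 181 RPKM before the wash, 172 at 0 h and 107 at 0.5 h, and then 4.48 and 1.2 RPKM in the later libraries. Its log2 change was -4.02 (SE 1.06, limma adjusted p = 0.00633). At 0.5 h neither locus was called on its own, with limma log2 changes of -1.76 (adjusted p = 0.534) and -0.72 (adjusted p = 0.811). The calls of both falls were lost without the 0 h library (adjusted p = 0.0718 and 0.0635), and that of Cre26.g773000.t1.2 also without the 4 h library (adjusted p = 0.0514).

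**Figure D1:**
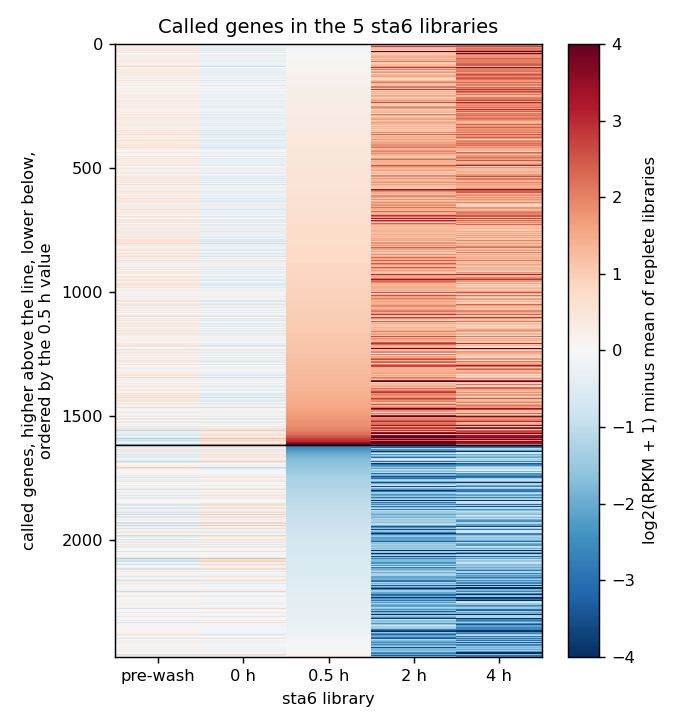
The 2472 called genes (rows) in the 5 sta6 libraries (columns); colour is log2(RPKM + 1) minus the mean of the replete libraries, and values beyond 4 in either direction have the end colours. The 1619 higher genes are above the line and the 853 lower genes below it, each ordered by the 0.5 h value. At 0.5, 2 and 4 h the medians were 0.76, 1.53 and 1.70 for the higher genes. For the lower genes they were -0.67, -1.92 and -1.85.

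The count itself moved with single libraries. It was 4009 without the 0.5 h library, 1539 without 2 h, 1637 without 4 h and 981 without the 0 h library, all by limma. The spread came from all 34 libraries: with the 5 sta6 libraries alone limma called 0 genes, although 2504 had an unadjusted p under 0.05 against 6476 in the full fit.

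How the called genes moved over time was read from the libraries themselves, as a description. The higher genes had a median log2 difference from the replete mean of 0.76 at 0.5 h, 1.53 at 2 h and 1.70 at 4 h. The lower genes had medians of -0.67, -1.92 and -1.85. Most of the movement was therefore present by 2 h in both directions. The highest of the 3 values came at 0.5 h in 54 of the higher genes, at 2 h in 795 and at 4 h in 770. Among the lower genes the lowest value came at 0.5 h in 44, at 2 h in 453 and at 4 h in 356. All 3 starved libraries lay beyond both replete libraries in 1352 of the 1619 higher and 704 of the 853 lower genes. The called genes were chosen on these same libraries, which favours such counts, and the share over all genes was not counted. The replete libraries differed from each other at some of these genes. At 0 h, 54 of the 1619 higher genes were already at least 2-fold above pre-wash while 213 were at least 2-fold below it. Of the 853 lower genes 30 were below and 163 above. Over all genes tested, 6.76% were above and 4.95% below.

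Each time was then tested on its own against the replete libraries. A lone library has no spread of its own, so it was assumed to vary like the other groups of the series. At 0.5 h, 404 genes (2.78%) were called, 277 higher (1.91%) and 127 lower (0.875%). At 2 h the number was 3711 (25.6%), with 2327 higher (16%) and 1384 lower (9.54%). At 4 h it was 3748 (25.8%), with 2741 higher (18.9%) and 1007 lower (6.94%). Under median-of-ratios scaling the splits were 219 higher and 223 lower at 0.5 h, 1529 and 1842 at 2 h, and 1856 and 1429 at 4 h. The excess of higher genes at 0.5 h and 2 h was thus not kept under that scaling, and at 4 h it was. Without the pre-wash library 926 genes were called at 0.5 h, and without the 0 h library 2280 at 2 h.

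**Figure D2:**
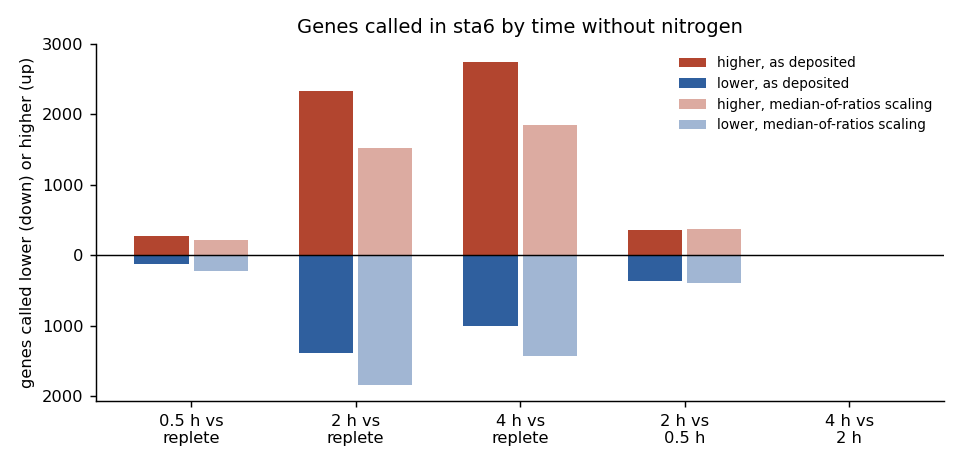
Number of genes called higher (upward bars) and lower (downward bars) in sta6 by limma, for each time against the replete libraries and for the steps between times, with the values as deposited (dark) and after median-of-ratios scaling (light). As deposited, calls number 404 at 0.5 h, 3711 at 2 h and 3748 at 4 h, and the direct step from 0.5 to 2 h has 719. The last step has 1 call as deposited and 0 after scaling.

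After 0.5 h the largest rise was again at Cre13.g569850.t1.1 (log2 change 6.49, SE 0.780, limma adjusted p = 2.1e-05). The next was at Cre10.g442100.t1.1, a model with a recovered length of only 25 bases, listed at 0 in both replete libraries. It held 19.4, 6.995 and 3.4 RPKM at the 3 times, but these values stand for 4, 1 and 3 reads, so no fold is given and the call (limma adjusted p = 0.00569) rests on 4 reads.

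Among the early falls, Cre12.g501600.t1.1 had its lowest value of these 5 libraries at 0.5 h. It was at 106 RPKM before the wash and 56.0 at 0 h, then at 9.74, 10.2 and 13.3 RPKM at 0.5, 2 and 4 h. The 3 starved values were close together and well below both replete values, and later libraries were higher again, with 17.6 RPKM at 8 h and 40.8 at 48 h. Its log2 change at 0.5 h was -2.86 (SE 0.303, limma adjusted p = 2.77e-06). CC-4349 had 127 and 98.1 RPKM in the replete libraries and 21.6, 14.3 and 21.6 RPKM at the same times without nitrogen.

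Cre05.g237450.t1.1 also fell by 0.5 h. Its levels were 495 RPKM before the wash, 554 at 0 h, and 73.2, 28.3 and 26.5 RPKM without nitrogen. The groups did not overlap, and most of the fall lay before 0.5 h. Neither later step was called, with log2 changes of -1.34 from 0.5 to 2 h and -0.09 from 2 to 4 h. The log2 change at 0.5 h was -2.82 (SE 0.583, limma adjusted p = 0.00676). In CC-4349 the same locus was still at 260 RPKM at 0.5 h and then read 52.0 and 52.6 RPKM.

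At 2 h the largest rise was at Cre02.g140300.t1.2. It had 0.0411 RPKM before the wash, 0.185 at 0 h and 2.54 at 0.5 h, then 242 at 2 h and 162 at 4 h. Behind these values were 1, 5, 61, 4027 and 16658 reads. At 0.5 h the level was above both replete libraries, with a log2 change of 1.67 that was not called (limma adjusted p = 0.56). Most of the rise on the log2(RPKM + 1) scale fell between 0.5 h and 2 h, a log2 change of 6.10. The log2 change against replete was 7.77 at 2 h (SE 1.25, limma adjusted p = 8.36e-05) and 7.20 at 4 h (SE 1.25, limma adjusted p = 0.000126).

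Cre01.g009350.t1.1 followed the same course. Its levels were 1.65 RPKM before the wash, 2.35 at 0 h, and 13.6, 640 and 321 RPKM at the later times. The 2 h library was the highest, and the locus was lower again at 8 h, with 136 RPKM. Its log2 change at 2 h was 7.75 (SE 0.851, limma adjusted p = 8.7e-07). In CC-4349 it peaked at 2 h as well, at 644 RPKM, and was at 147 RPKM at 4 h.

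The largest fall at 2 h by value was at Cre35.g784050.t1.1 (limma adjusted p = 1.56e-05), for which no fold is given. The length recovered for this model from the values is 5 bases. It held 3, 2, 2, 0 and 6 reads in the 5 libraries, and a library of 5.72 M reads that lists it at 0 cannot be told from one with a few reads. With voom weights on the recovered reads it was not called (adjusted p = 0.0853). The second fall was again Cre07.g346950.t1.2, whose log2 change at 2 h was -5.20 (SE 1.26, limma adjusted p = 0.00323) from 12 reads in that library, and which voom did not call (adjusted p = 0.0674).

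At 4 h the falls were deepest at Cre26.g773000.t1.2 and Cre02.g139950.t1.1. The first had a log2 change of -6.33 (SE 1.05, limma adjusted p = 8.83e-05). The second was an abundant transcript, at 1726 RPKM before the wash, 1845 at 0 h and 1460 at 0.5 h. It then dropped to 136 RPKM at 2 h and 30.4 at 4 h, a log2 change of -5.83 at 4 h (SE 1.33, limma adjusted p = 0.00157). It stayed low later, with 12.3 RPKM at 8 h. CC-4349 showed 2138, 272 and 43.4 RPKM at the same 3 times without nitrogen.

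**Figure D3:**
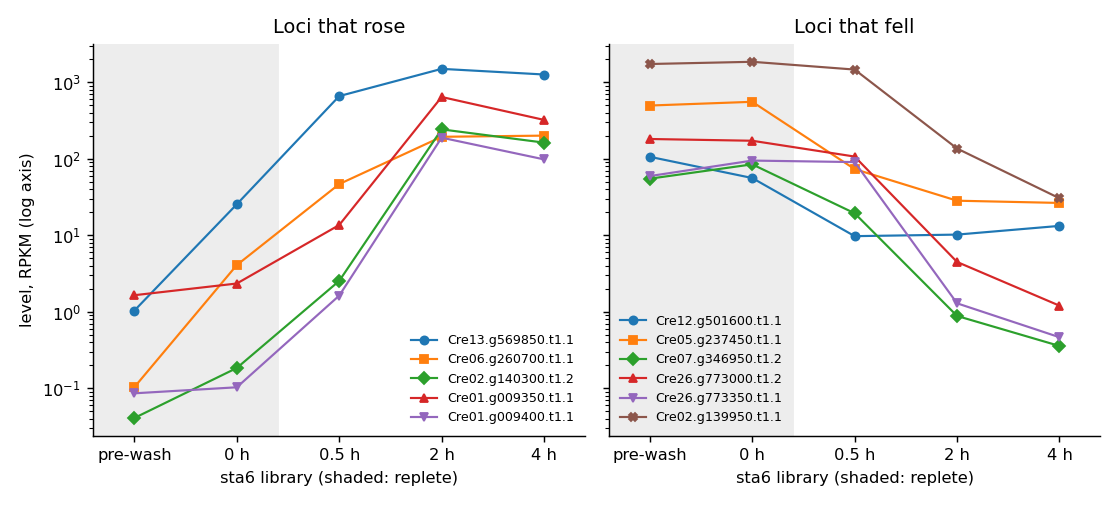
Level (RPKM, log axis) of loci with the largest rises (left) and falls (right) in the 5 sta6 libraries, 1 point per library; the replete libraries are shaded. Cre13.g569850.t1.1 climbs from 1.04 to 1492 RPKM and is already at 658 RPKM at 0.5 h, whereas Cre02.g139950.t1.1 holds 1460 RPKM at 0.5 h and falls only afterwards.

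The steps between times asked when the change happened. From 0.5 to 2 h, 719 genes (4.95%) were called, 362 higher (2.49%) and 357 lower (2.46%). From 2 to 4 h, 1 gene was called higher (0.00689%) and 0 lower (0.00%), with 1750 genes at an unadjusted p under 0.05 against 3524 for the earlier step. Both steps compare a single library with another. The earlier count depended on how depth was treated: it was 445 when all libraries were thinned to the 2 h total and 23 with voom weights.

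Cre01.g009400.t1.1 had the largest rise of the first step. Its levels were 0.0863, 0.104, 1.63, 188 and 98.1 RPKM from pre-wash to 4 h. The 2 h library held 4481 reads of it against 56 at 0.5 h, a log2 change of 6.17 (SE 1.12, limma adjusted p = 0.00391). On the reference assembly it lies next to Cre01.g009350.t1.1, which peaked at 2 h too. Cre26.g773350.t1.1 had the largest fall of the step apart from Cre35.g784050.t1.1. It held 59.4 RPKM before the wash, 94.6 at 0 h, and 90.4, 1.29 and 0.466 RPKM at the later times, so that its level was kept to 0.5 h and then nearly lost. Its log2 change over the step was -5.32 (SE 0.736, limma adjusted p = 0.000228), and it stayed called with voom weights, as Cre01.g009400.t1.1 and Cre02.g140300.t1.2 did not (adjusted p = 0.102 and 0.184). In CC-4349 Cre26.g773350.t1.1 read 37.6, 7.87 and 13.4 RPKM at the 3 times.

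The 1 gene called from 2 to 4 h was Cre06.g252300.t1.1. It read 26.5 and 22.5 RPKM in the replete libraries, 13.8 at 0.5 h, 4.21 at 2 h and 20.03 at 4 h. The 2 h library stood apart from the others, with 59 reads, and at 4 h the level was near that of the replete cells. The log2 change was 2.01 (SE 0.307, limma adjusted p = 0.0112), and the call was lost with median-of-ratios scaling (adjusted p = 0.0864), with thinning (0.136) and with voom weights (0.459).

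To give the order of changes gene by gene, a gene was counted as out at a time when it lay at least 2-fold above the higher, or below the lower, of both replete libraries. This is a description of single libraries with no test. In all 4136 of 14513 genes (28.5%) were out at 1 or more times. At 0.5 h, 2.34% of the genes were out above and 1.53% below. At 2 h these shares were 10.7% and 8.14%, and at 4 h 14.3% and 5.97%.

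Upward, 1046 genes were out at 4 h and not earlier, and 786 at 2 h and 4 h. Which of these classes was larger depended on the setting: with the 0 h library alone as baseline they held 1068 and 1804 genes, and with a pseudocount of 0.1 they held 1106 and 1158. A further 486 were out at 2 h alone and 223 at all 3 times. Fewer genes were out early and not later, with 39 at 0.5 h alone and 59 at 0.5 and 2 h. These early classes grew when a single replete library was the baseline, to 170 and 96 genes against pre-wash and to 196 and 168 against 0 h. Downward, 548 genes were out at 2 and 4 h, 499 at 2 h alone, 210 at 4 h alone, 99 at all times, 80 at 0.5 h alone and 35 at 0.5 and 2 h. The classes at all times, at 0.5 h alone and at 0.5 and 2 h were 219, 221 and 74 genes against pre-wash alone, and 584, 112 and 109 against 0 h alone. The order differed by direction in these libraries, in that most genes that first appeared at 4 h were higher. Genes out at both 0.5 h and 4 h but not at 2 h numbered 12 and 4, and 10 genes moved in both directions. The class lower at 2 h alone had a median of 37 reads in the shallow 2 h library. After median-of-ratios scaling, 498 genes were higher and 732 lower at 2 and 4 h, so that the larger direction of that order turned, while 853 were higher and 273 lower at 4 h alone. With all libraries thinned to the depth of 2 h the numbers were close, with 1077 genes higher at 4 h alone and 244 lower.

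**Figure D4:**
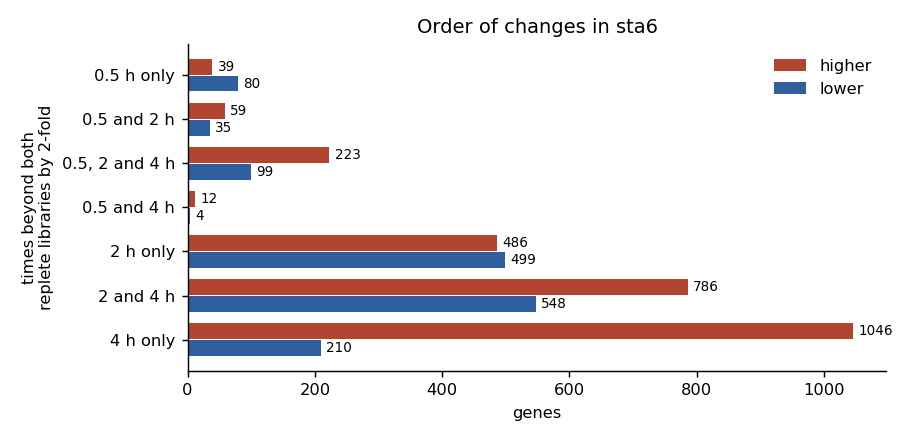
Number of genes (horizontal axis) by the set of times at which they lay at least 2-fold beyond both replete sta6 libraries (vertical axis), higher in red and lower in blue. With both replete libraries as baseline the longest bar is 1046 genes higher at 4 h only, and the bars for 0.5 h only are short, with 39 higher and 80 lower.

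The CC-4349 libraries were not used to form these classes, so they show whether the order recurred. Of the 223 genes higher at all 3 times in sta6, 58.7% were out above the CC-4349 replete libraries at 0.5 h, 84.3% at 2 h and 77.6% at 4 h, against 2.85%, 9.17% and 6.41% of all genes. The 99 genes lower at all 3 times had smaller shares, with 23.2%, 49.5% and 31.3% out below in CC-4349, and the 35 lower at 0.5 and 2 h had 11.4%, 28.6% and 5.71%. Of the 80 genes lower in sta6 at 0.5 h alone, 36.2% were lower in CC-4349 at 0.5 h, 6.25% at 2 h and 1.25% at 4 h. Over all genes the downward shares were 2.97%, 5.95% and 3.35%. The passing dip was thus seen in CC-4349 at 0.5 h for a minority of that small class, though a larger share than of all genes. At 2 h the share of the class was near that of all genes, and at 4 h it rested on 1 gene.

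Of the 39 genes higher at 0.5 h alone, 38.5% were out in CC-4349 at 0.5 h, 23.1% at 2 h and 12.8% at 4 h. Over all genes the upward shares were 2.85%, 9.17% and 6.41%. Genes of the 2 h classes recurred at 2 h, with 51.9% of the 486 higher and 58.1% of the 499 lower at 2 h alone. At 4 h these had shares of 17.3% and 12.4% in CC-4349. Of the 786 genes higher in sta6 at 2 and 4 h, 46.8% were out in CC-4349 at 2 h and 38.0% at 4 h. Of the 548 lower at 2 and 4 h, 51.5% and 49.3% were out below. Of the 1046 genes higher in sta6 at 4 h alone, 9.27% were out in CC-4349 at 4 h, against 6.41% of all genes. Their median log2 difference at 4 h was 1.62 in sta6 and 0.75 in CC-4349. Of the 210 genes lower at 4 h alone, 29.0% were out below in CC-4349 at 4 h, against 3.35% of all genes. Libraries of the strains taken at the same time shared part of their deviations (consensus correlation 0.482), and the part of this in the recurrence was not tested.

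Whether the response was particular to sta6 was tested as the difference of the first-hours change between the strains. By limma, 16 of 14513 genes (0.110%) were called. The sta6 change was the higher one in 3 (0.0207%) and the lower one in 13 (0.0896%), and 936 genes had an unadjusted p under 0.05. For comparison, the first hours called 1176 genes (8.10%) in CC-4349 alone, 909 higher (6.26%) and 267 lower (1.84%), and the larger number in sta6 is no test of a difference. Of the 1619 genes higher in sta6, 1576 had a change of the same sign in CC-4349, with a median of 0.88 against 1.27 in sta6. Of the 853 lower genes 783 did, with a median of -0.79 against -1.48. Over all genes the CC-4349 change had a median of 0.21, so a positive sign was the more common one there. The share of each sign over all genes was not counted. The sta6 genes were chosen on the sta6 libraries, which draws their own medians away from 0. Calls in common were 616 higher genes, 38.0% of the sta6 list and 67.8% of the CC-4349 list, and 155 lower genes, 18.2% and 58.1%.

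The largest difference toward a lower change in sta6 was at Cre01.g027300.t1.2. In sta6 it read 10.3 RPKM before the wash, 38.2 at 0 h, and 9.87, 4.99 and 5.86 at 0.5, 2 and 4 h. In CC-4349 it read 3.03 and 10.3 RPKM in the replete libraries and 37.1, 43.2 and 37.3 RPKM without nitrogen. Every starved library was above both replete libraries in CC-4349. In sta6 each was below both, but the 0.5 h library lay only just under pre-wash, and the 0 h library stood far above the rest. Between the strains the log2 changes were -4.03 apart (SE 0.603, limma adjusted p = 0.00581). Without single replete libraries the difference moved by over 1.5 times and stayed called: it was -3.13 without sta6 0 h (adjusted p = 0.0316), -4.93 without sta6 pre-wash (7.87e-05), -3.29 without CC-4349 pre-wash (0.0497) and -4.78 without CC-4349 0 h (0.00029).

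Cre10.g437400.t1.1 fell in sta6 from 7.83 and 17.9 RPKM to 1.15, 0.333 and 0.793 RPKM. In CC-4349 it was at 1.55 and 2.82 RPKM in the replete libraries and at 1.69, 5.96 and 10.8 RPKM without nitrogen. The CC-4349 groups overlapped at 0.5 h, and the locus was not called there. The difference was -3.86 (SE 0.648, limma adjusted p = 0.00964), and the call was lost without the sta6 0 h library (adjusted p = 0.0828) or the CC-4349 pre-wash library (0.0585).

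In the other direction, Cre11.g472550.t1.1 rose in sta6 from 0.632 and 0.650 RPKM to 16.5, 39.0 and 16.1 RPKM. In CC-4349 it rose from 0.0834 and 0.129 RPKM to 0.421, 2.50 and 2.16 RPKM. Both strains moved upward without overlap, from a low start. The difference was 2.62 (SE 0.499, limma adjusted p = 0.0191) on the log2(RPKM + 1) scale, which compresses the low CC-4349 values: with a pseudocount of 0.1 it was 2.06 (adjusted p = 0.327) and with voom weights 1.34 (adjusted p = 0.890). The call was also lost without the sta6 library at 2 h (adjusted p = 0.0655) or 0 h (0.0828) and without either CC-4349 replete library (0.0762 and 0.0948).

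Cre04.g212700.t1.2 was a small difference at low level. It went in sta6 from 0.578 and 1.11 RPKM to 1.47, 2.06 and 2.23 RPKM, and in CC-4349 from 3.97 and 5.42 RPKM to 1.29, 2.00 and 2.74 RPKM. The sta6 values ended near the CC-4349 ones. The difference was 1.60 (SE 0.304, limma adjusted p = 0.0191), and the call was lost with a pseudocount of 5, with quantile normalization, with thinning, without the sta6 library at 2 h, 4 h or pre-wash, and without the CC-4349 0 h library (adjusted p between 0.0475 and 0.123, where the lowest was lost by the fold of the change and not by its p).

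Over the 16 loci, sta6 had 10 called on its own, 8 lower and 2 higher, and CC-4349 had 5, all higher. Of the 8 lower ones, 7 were not called in CC-4349. In 15 of the 16 the replete mean was higher in sta6 than in CC-4349. The replete values are part of the difference on which these loci were chosen, so this count is not independent of the choice. The share over all genes was not counted. The number of calls depended on single libraries. It was 214 without the sta6 0.5 h library, 60 without the sta6 pre-wash library, 49 without the CC-4349 0.5 h library, 10 without the sta6 0 h library, 7 without sta6 4 h and 5 without sta6 2 h, and 196 where libraries of the same time formed a random block.

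**Figure D5:**
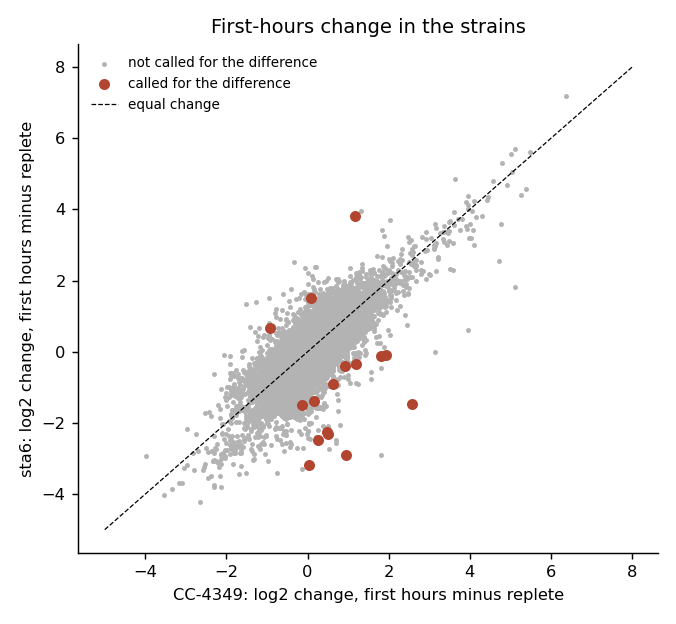
Log2 change of the first hours without nitrogen against replete cells in CC-4349 (horizontal axis) and sta6 (vertical axis) for the 14513 genes tested, on the log2(RPKM + 1) scale. The 16 genes called for the difference between the strains are in red, 13 of them below the dashed line of equal change. The genes called higher in sta6 had medians of 1.27 in sta6 and 0.88 in CC-4349. They were chosen on the sta6 libraries, which raises their sta6 median, so this gap is no test of a departure from that line.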

How the data were processed

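The deposited table holds 1 value per gene model and library. The authors deposited these values with no named unit, and they were taken as RPKM, reads scaled by model length and library total, since each library sums to between 593366 and 711517 and the low values are whole multiples of a step. Reads were aligned with Bowtie, per the submitters' processing notes. Not given in the sources used here: its version, the build, the annotation, the counting rule and the strand setting, so near-identical or overlapping genes cannot be told apart. One column (sta6 at 24 h after the acetate boost) differs from its label in the last letters of its name.

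Whole reads and whole model lengths were recovered for 16583 of 17301 models, in which 99.9% of values were within 0.05 reads of a whole number. The lengths come from the values and not from an annotation, and the shortest among the genes tested was 2 bases. The steps were checked on simulated data. Totals ranged from 5.72 to 53.9 M reads over the 34 libraries. Depth limits cover counting error only.

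The 14513 genes whose mean over the 34 libraries reached 1 RPKM were analysed as log2(RPKM + 1), a scale that understates changes of low genes, with limma 3.58.1 (empirical Bayes with trend) in R 4.3.3 and Benjamini-Hochberg adjustment over all genes tested. The first-hours change and the strain difference came from 12 strain-by-phase groups (22 residual degrees of freedom). Single times came from 14 groups (20 degrees of freedom). The rule named the 2 largest rises and 2 largest falls among the called of each comparison, since no source annotates the loci. The libraries, lists and comparisons were chosen with earlier results of these data known. Alternatives were other pseudocounts, filters and scalings, left-out libraries, a random block of matched times, fits on sta6 alone and, added after seeing the data, voom weights and thinned reads.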

Additional observations from a re-analysis of the deposited data

Results flagged for a closer look

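The change over the first hours differed between sta6 and CC-4349 by limma's test of the difference in 16 genes, which is what singled these results out. The named loci differ by -4.03 at Cre01.g027300.t1.2 and -3.86 at Cre10.g437400.t1.1, where sta6 was called lower and CC-4349 was called higher at the first and not called at the second, and by 2.62 at Cre11.g472550.t1.1 and 1.60 at Cre04.g212700.t1.2, on the log2 scale. At Cre04.g212700.t1.2 the levels without nitrogen were alike in the strains and the replete levels were not, with a sta6 mean of 0.845 RPKM against single CC-4349 values of 3.97 and 5.42 RPKM. Groups of 2 or 3 libraries are too small for a search for single outlying values, so none was made.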

How the results depend on the processing

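No named locus changed sign under any alternative run, with 263 locus values on the same side of the call and 34 losing it. Of the counts, 55 stayed within 1.5 times of the reported one and 34 did not, and the causes were not tested. With a pseudocount of 5 RPKM, limma called 1073 genes over the first hours, 167 at 0.5 h, 1968 at 2 h and 2114 at 4 h, and 2253 genes were beyond both replete libraries. The latter number was 2060 with a limit of 1.5 on the log2 scale and 7452 with the 0 h library alone as baseline. The step from 2 to 4 h, with 1 call, had 17 with a pseudocount of 0.1, 90 with one of 5, 56 with no filter, 3 with a mean of at least 5 RPKM and 5 after quantile normalization. It had 0 by limma after median-of-ratios scaling, thinning or voom weights (1800, 1523 and 1211 genes at an unadjusted p under 0.05). The step from 0.5 to 2 h had 445 after thinning and 23 with voom weights, and voom called 190 genes at 0.5 h. The strain difference had 25 calls with a pseudocount of 0.1, 10 with a mean of at least 5 RPKM and 196 with a random block. The fit on the 5 sta6 libraries by limma called 0 genes (2504 at an unadjusted p under 0.05). Leaving out 1 library at a time gave 981 to 4009 calls for the first hours, 362 to 926 at 0.5 h, 2280 to 4889 at 2 h, 2665 to 4869 at 4 h and 5 to 214 for the strain difference. Replicate numbers were given in accession order and pair no samples, while the strains are matched by time, which the random block used. At 5.72 M reads the 2 h library limits what can be said of low genes.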

Other observations

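The weight of the response in the RNA pool can be read from the recovered reads, as a description, since the genes were chosen on these libraries. The 1619 genes called higher held 3.86% of the reads before the wash and 2.92% at 0 h, and then 6.69%, 13.9% and 13.7% in order of time. The 853 genes called lower held 18.9%, 17.5%, 11.6%, 4.90% and 3.58% in the same libraries. The 10 most abundant models held between 5.27% and 5.77% in each library, so no handful of transcripts came to dominate.

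Length moved with time. The sum of the RPKM values fell from 691946 before the wash to 593366 at 4 h, and the mean model length that this implies, weighted by level, went from 1445 to 1685 bases. The genes were put into 4 equal classes by recovered model length. The median log2 change at 4 h was 0.20 in the shortest (up to 1506 bases) and 0.45 in the longest (from 3585 bases). At 2 h these medians were 0.24 and 0.26. Of the shortest class 7.97% were called lower over the first hours, and of the longest 3.20%. The 4 h library is also the deepest, and the part of length or library preparation in these results was not tested.

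Calls of neighbouring genes were counted on the reference assembly, with no test. Of 1189 loci called higher that had a tested neighbour, 26.3% had a neighbour called higher, against 17.8% of all 10500 such loci. For lower calls the share was 15.3%, against 1050 of the 10500 loci. Of the 170 adjacent pairs both called higher, 1 had overlapping models, and of the 52 pairs both called lower 0 had. The neighbour of the falling locus Cre07.g346950.t1.2 rose by 3.21 on the log2 scale (limma adjusted p = 5.39e-06), and that of Cre12.g501600.t1.1 had a log2 change of -2.72 (limma adjusted p = 0.0012). Other named loci had neighbours that were not called, with log2 changes of -0.38 beside Cre13.g569850.t1.1 and -0.02 and 0.13 beside Cre10.g437400.t1.1. Beside Cre06.g260700.t1.1 a neighbour had 1.21 (limma adjusted p = 0.00827) and the other 0.41, not called.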
